A study of Mus musculus with 20 samples.

Results

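Loss of a distal enhancer of Gata2 was followed across all genes in cultured blood progenitor cells of the mouse. The cells were lineage-negative (Lin-) hematopoietic progenitors from fetal liver at E14.5 on the C57BL/6J background. Those of the -77KO group lacked the enhancer that lies 77 kb upstream of Gata2, and those of the WT group carried it. Cells of both groups were infected with the control retroviral vector right after isolation, which adds no GATA2, and were grown for 3 days in IMDM with 20% FBS, 4% IL3-CM and 4% SCF-CM, named for interleukin 3 and stem cell factor. Each group had 4 RNA-seq libraries, taken by their titles, so 8 of the 20 libraries of the series enter the comparison. The tests cover 15835 genes that passed a filter on low counts, of 53379 in the tables. The p-values rest on the spread between libraries within the 5 groups of the series, since all 20 libraries entered the fit. Whether libraries of 1 group came from separate embryos or cultures is not stated, so this spread may in part be technical. Libraries with the same number in the 4 -77KO groups of the series may hold cells of the same embryos, while the fit takes all 20 as independent.

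GATA2 is a zinc finger transcription factor that blood stem and progenitor cells need to form and to keep their choice of fates open. It binds the DNA word GATA together with partners such as TAL1, LMO2 and the cofactor FOG-1 (encoded by Zfpm1), and its relative GATA1 takes over many of the same sites as cells become red cells, megakaryocytes, mast cells, basophils or eosinophils. Interferon regulatory factors such as IRF8 act on the monocyte and dendritic cell side of these choices and bind a different word, a repeat of GAAA.

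The 8 libraries held 22330475 to 28138755 expected counts, of which the mitochondrial ribosomal RNA mt-Rnr2 took 17.9 to 24.6%. The first principal component held 69.6% of the variance and set the -77KO libraries (-64.0 to -60.8) apart from the WT libraries (51.3 to 71.9). Xist ran from 24.8 to 49.9 TPM in -77KO libraries and from 0.02 to 80.1 TPM in WT libraries, and Ddx3y of the Y chromosome from 0 to 13.9 TPM in -77KO and from 0 to 33.7 TPM in WT libraries, so libraries of both groups differed in their mix of sexes. Hepatocyte markers were present in both groups at sums of 888 to 2308 CPM in -77KO libraries and 998 to 4136 CPM in WT libraries, and 0 of their 13 members were called. Stromal markers had sums of 25.3 to 51.9 CPM in -77KO libraries and 11.5 to 32.4 CPM in WT libraries, with 3 of 8 members called higher and 0 lower, and the part of such cells in other results was not tested. Progenitor markers were read after culture, so they cannot check the Lin- label, which was given at isolation. Of these markers 8 of 10 were called higher and 2, Kit and Myb, lower. Their sums were 1026 to 1112 CPM in -77KO libraries against 521 to 547 CPM in WT libraries. Cd34 was the largest part of the -77KO sums, with 410, 387, 431 and 369 CPM, against 54.3, 83.25, 59.85 and 44.67 CPM in WT libraries. The sums therefore do not count progenitor cells. Flt3, among those called higher, also stands on the dendritic cell list, and Spi1 is a regulator of myeloid cells. Markers of maturing cells were also read in these cultures. Those of red cells were called lower in 10 of 10, of mast cells and basophils in 9 of 9, of eosinophils in 7 of 7 and of megakaryocytes in 7 of 7, while 7 of 9 macrophage and 7 of 8 dendritic cell markers were called higher. Neutrophil markers had sums of 3791 to 5045 CPM in -77KO libraries and 7878 to 16430 CPM in WT libraries, with 5 of 9 called lower and 0 higher. The lower ones included S100a8 and S100a9, while Mpo, Elane, Ctsg and Prtn3 were not called. B cell markers had sums of 80.2 to 90.9 CPM in -77KO and 11.4 to 17.0 CPM in WT libraries, with 3 of 3 higher. In such bulk samples fewer cells of a type and less RNA per cell cannot be told apart.

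Gata2 itself had 5.53, 5.24, 4.72 and 7.67 CPM (the count relative to the TMM-scaled library) in the 4 -77KO libraries, against 52.96, 31.5, 41.8 and 50.9 CPM in the 4 WT libraries. The groups were far apart, and the gene stood 7.63-fold lower without the enhancer, with a log2 difference of -2.93 ± 0.36 (SE) and an adjusted p of 2.88e-06 in edgeR's quasi-likelihood test. The deletion leaves the gene itself in place, and its transcript was still read in all 4 -77KO libraries.

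The genes beside the enhancer behaved unevenly. Within 1000 kb of the start of Gata2, 31 other genes were tested, of which 3 were called higher and 12 lower, with a median log2 difference of -0.50. The neighbours on either side of the gene differed little. Rpn1, an oligosaccharyltransferase subunit whose gene is the first tested protein-coding one beyond the enhancer, had 301, 299, 287 and 285 CPM in -77KO libraries and 262, 251, 242 and 187 CPM in WT libraries, a log2 difference of 0.32 ± 0.09 (SE) and an adjusted p of 0.00873. Downstream, Eefsec (selenocysteine elongation factor) and Ruvbl1 (an ATPase of chromatin remodelling complexes) had log2 differences of -0.07 and 0.00 and were not called. Mgll, which encodes the monoacylglycerol lipase and starts farther downstream than both, was the protein-coding neighbour with the lowest value: 2.18, 2.43, 2.45 and 2.59 CPM in -77KO libraries, against 18.04, 18.6, 23.6 and 25.1 CPM in WT libraries, 8.82-fold lower with a log2 difference of -3.14 ± 0.19 (SE) and an adjusted p of 7.75e-10. On the far upstream side Aplf, a DNA end-joining factor, was 2.89-fold lower and Prokr1, a prokineticin receptor, 5.07-fold lower. These neighbours were named after their values were seen.

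**Figure D1:**
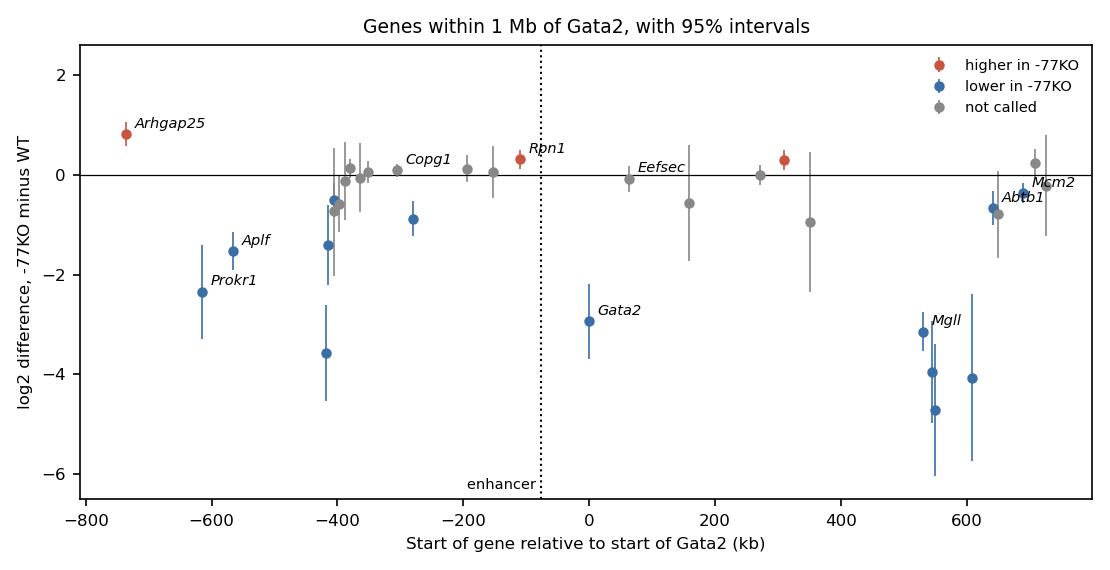
Log2 differences (-77KO minus WT, vertical axis) with 95% intervals of Gata2 and the 31 tested genes within 1000 kb, against the distance of each gene's left end from that of Gata2 in kb; the dotted line marks the enhancer. Gata2 at -2.93 and Mgll at -3.14 are low, while Rpn1 and Eefsec, on either side of Gata2, stay within 0.32 of 0.

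Across all genes, 6859 were called at an adjusted p under 0.05, which is 43.3% of those tested. The 3181 called higher in -77KO libraries are 20.1% of all tested genes and the 3678 called lower are 23.2%, and these shares are the background for every count of members given here. Large losses outnumbered large gains. At least 4-fold, 403 genes were called higher (2.54%) and 720 lower (4.55%), at least 8-fold 116 (0.733%) and 371 (2.34%), at least 16-fold 25 (0.158%) and 206 (1.3%), and at least 32-fold 6 (0.0379%) and 91 (0.575%). At least 2-fold, 1264 were called higher (7.98%) and 1708 lower (10.8%). All 4 -77KO libraries lay above all 4 WT libraries for 2962 genes (18.7%) and below them for 3183 (20.1%). The balance of all calls was not stable. Of the calls above 46.4% were higher, against 50.1% without WT replicate 4 and 58.6% with limma on log2(TPM + 1), which called 3494 genes higher and 2472 lower, and at least 2-fold 801 higher and 700 lower.

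**Figure D2:**
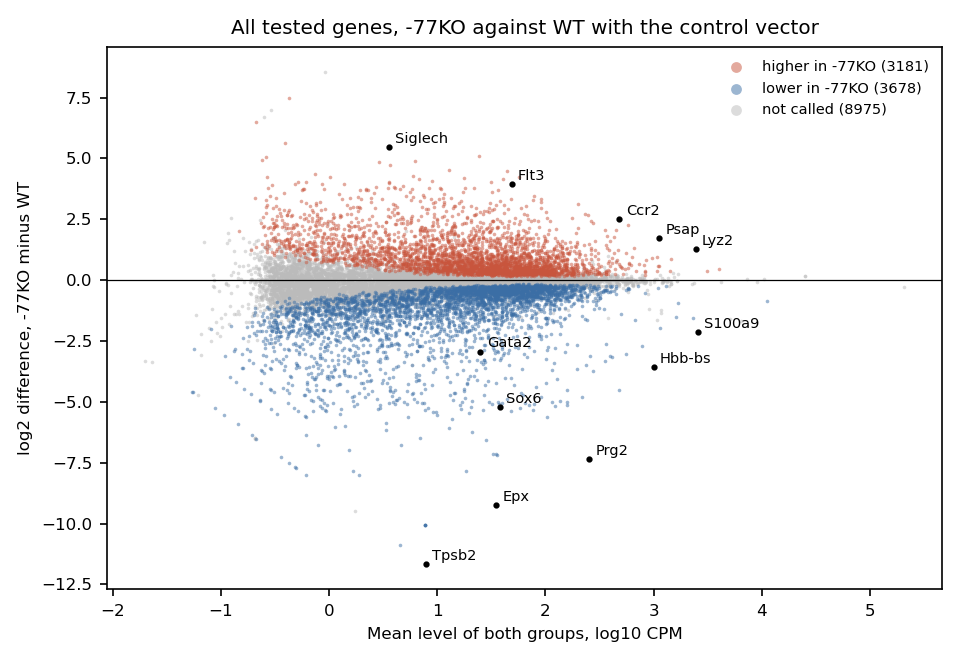
Log2 difference (-77KO minus WT, vertical axis) against the mean level of both groups (log10 CPM) for all 15835 tested genes but 1, which is at 0 in all 8 libraries; colours give the 3181 genes called higher and the 3678 called lower. Below -5, that is at least 32-fold, lie 91 called genes, against 6 called genes above 5.

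The shares called in each direction differed by level and by kind of gene, and level and kind were not separated. Among genes under 1 TPM on average, 11.5% were called higher and 21.8% lower, and among those from 10 to 100 TPM 25.6% higher and 23.2% lower. The 704 genes over 100 TPM were called in 32.5%, 18.6% higher and 13.9% lower, close to the 33.3% of genes under 1 TPM. Protein-coding genes split nearly evenly, with 22.8% higher and 24.3% lower of 12992. Long noncoding RNA genes leaned down, with 8.78% higher and 23.9% lower of 1014.

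The lowest 12 named genes were led by products of granules. Tpsb2, a mast cell tryptase, had 0 counts in all 4 -77KO libraries and 12.4, 17.5, 11.9 and 20.6 CPM in WT libraries, which is at least 536-fold lower against a floor of 3 counts over the group. Epx, the eosinophil peroxidase, had 0.0376, 0.0419, 0.306 and 0.0711 CPM in -77KO libraries, against 81.7, 61.8, 68.8 and 65.7 CPM in WT libraries, a log2 difference of -9.26 ± 0.77 (SE) with an adjusted p of 2.74e-08. Prg2, the eosinophil major basic protein, averaged 3.12 ± 1.71 CPM in -77KO libraries and 505 ± 132 CPM in WT libraries (SD, n = 4 each). Its paralog Prg3 and the eosinophil ribonucleases Ear1 and Ear6 were 227-fold, 142-fold and 145-fold lower, the last pair being close copies whose reads may be shared. Without -77KO replicate 3, the highest -77KO library for both, the log2 differences were -10.28 for Epx and -8.23 for Ear6. Cma1, a mast cell chymase, had 0.263, 0.838, 0.175 and 0.533 CPM in -77KO libraries and 45.0, 88.7, 64.8 and 59.3 CPM in WT libraries. Tph1, the first enzyme of serotonin synthesis, fell to 0, 0.168, 0 and 0.142 CPM in -77KO libraries, against 6.74, 14.7, 6.85 and 8.71 CPM in WT libraries. The other 4 of the 12 were U3 small nucleolar RNA copies (Rnu3b1 to Rnu3b4) with 1 count over the -77KO group, which share reads, so their values are uncertain.

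Just outside these 12 stood Scd1, Acsl6, Slc30a10 and Hapln1, named after their values were seen. Scd1, which puts the double bond into stearic acid, had 0.790, 0.503, 0.481 and 0.568 CPM in -77KO libraries, against 33.6, 34.8, 72.2 and 82.7 CPM in WT libraries, 94.0-fold lower. WT replicates 3 and 4 were higher in Scd1 than WT replicates 1 and 2, and no -77KO library reached 1 CPM. Acsl6, an acyl-CoA synthetase, was 90.3-fold lower, the manganese exporter gene Slc30a10 75.8-fold and Hapln1, a link protein of the matrix, 71.7-fold, with a log2 difference of -6.16 that became -6.84 without -77KO replicate 1.

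The highest 12 named genes were receptors known from lymphoid and dendritic cells and interferon-induced genes, with Ly6a and Apol7c beside them. Siglech, a sialic acid receptor known from plasmacytoid dendritic cells, had 7.79, 6.995, 5.81 and 7.53 CPM in -77KO libraries, against 0.130, 0.344, 0.141 and 0.0367 CPM in WT libraries, 44.0-fold higher with a log2 difference of 5.46 ± 0.79 (SE) and an adjusted p of 1.77e-05. Cd7 and Cd96, surface proteins of T and NK cells, had 11.1, 9.72, 11.8 and 15.7 CPM and 18.5, 10.8, 17.3 and 21.5 CPM in -77KO libraries, against 0.478, 0.393, 0.516 and 0.220 CPM and 0.565, 1.23, 1.22 and 0.992 CPM in WT libraries. Klrd1, the CD94 chain of NK receptors, averaged 12.9 ± 1.51 CPM in -77KO libraries and 0.726 ± 0.138 CPM in WT libraries (SD, n = 4 each). The 9 markers of T and NK cells summed to 4.41 to 6.92 CPM in -77KO libraries, against 8.16 to 13.9 CPM in WT libraries, and of the 3 tested 1 was called higher and 1 lower. Ly6a, which encodes the stem cell antigen SCA-1, averaged 107 ± 25.1 CPM in -77KO libraries and 5.75 ± 2.505 CPM in WT libraries, 18.7-fold higher. Of the interferon-induced genes Ifit3, whose product binds with its relatives to viral RNA, had 120.3, 84.8, 62.2 and 70.9 CPM in -77KO libraries, against 1.52, 8.93, 1.88 and 3.01 CPM in WT libraries. Replicate 1 was the highest -77KO library and replicate 2 the highest WT library for Ifit3, and the order was the same for Ifi205, Ms4a4c and Ifit1bl1. Ifit1bl1, Ifit3b, Ifi44 and Ifi205 rose by log2 differences of 5.08, 4.54, 4.73 and 4.21. Ms4a4c, of the membrane-spanning 4A family, and Apol7c, an apolipoprotein L gene, rose by 4.16 and 4.30. Without WT replicate 2 the log2 differences were 6.12 for Siglech, 5.32 for Ifit3, 5.17 for Ifit3b and 5.05 for Ms4a4c, against 5.46, 4.48, 4.54 and 4.16 with all libraries. Ifit3 and Ifit3b are close copies, and reads may be shared between them.

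On the TPM scale (corrected for length, as deposited) the genes called lower held 7.34 to 9.16% of the summed TPM of tested nuclear genes in -77KO libraries, against 12.4 to 18.5% in WT libraries, and the genes called higher 11.5 to 13.1% in -77KO libraries, against 5.98 to 8.39% in WT libraries. S100a9 and S100a8, the 2 chains of the neutrophil protein calprotectin, had the largest losses and averaged 2171 ± 491 and 2864 ± 518 TPM in -77KO libraries, against 9040 ± 4425 and 7999 ± 3675 TPM in WT libraries (SD, n = 4 each). WT replicate 2 was the highest WT library for both. The beta globin genes Hbb-bs and Hbb-bt averaged 273 ± 231 and 98.0 ± 75.7 TPM in -77KO libraries, against 3132 ± 845 and 958 ± 232 TPM in WT libraries, with replicate 4 the highest of the -77KO group for both. Their log2 differences were -3.56 and -3.34, and -4.42 and -4.11 without that library. The stefin gene Stfa1, a cathepsin inhibitor of myeloid cells, averaged 972 ± 214 TPM in -77KO libraries and 2876 ± 1111 TPM in WT libraries. The gains were led by Lyz2, the lysozyme of macrophages and neutrophils, with 2710 ± 274 TPM in -77KO libraries and 1044 ± 417 TPM in WT libraries and an adjusted p of 0.0201. The call of Lyz2 was lost without WT replicate 1, with an adjusted p of 0.0605. Psap, the precursor of lysosomal saposins, averaged 659 ± 49.5 TPM in -77KO libraries and 186 ± 26.0 TPM in WT libraries. Plac8, Ftl1 (the ferritin light chain), Actb, Tmsb4x (which holds free actin), Hspa8 and Tyrobp (the adaptor of many activating receptors) made up the other 6 gains.

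**Figure D3:**
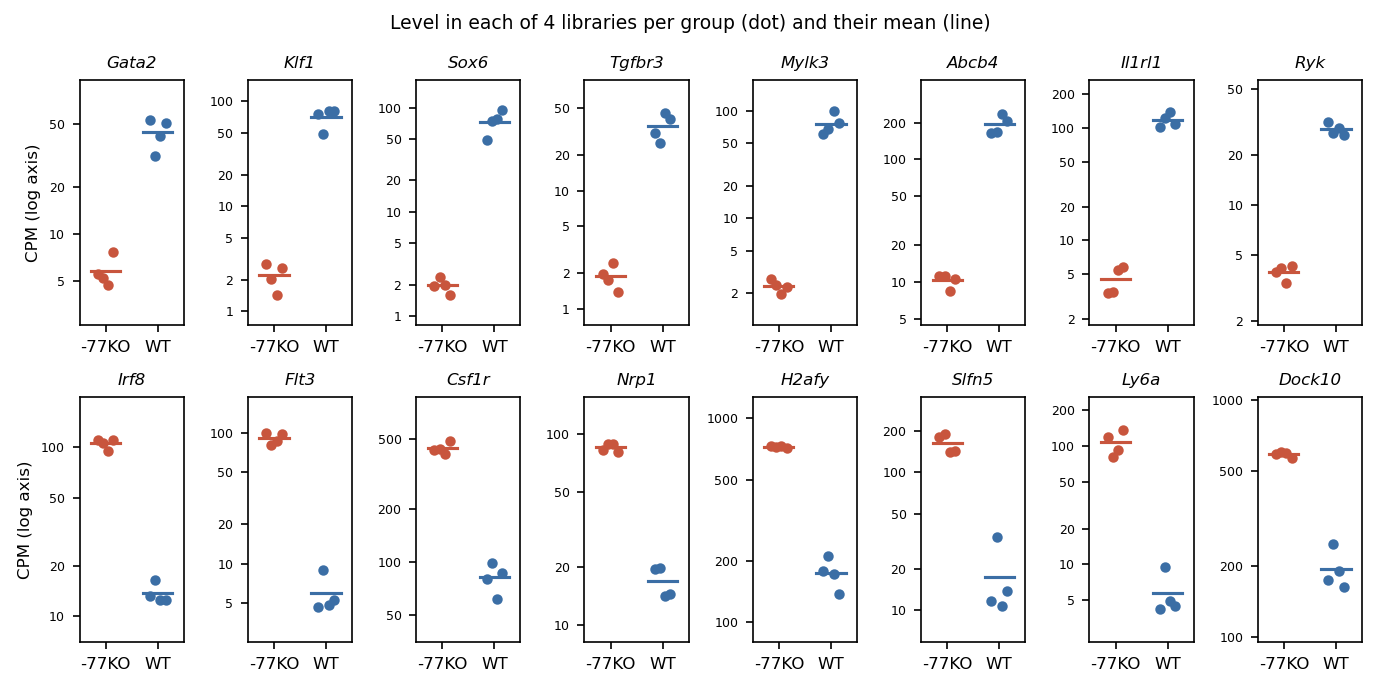
CPM on log axes in each of the 4 -77KO and 4 WT libraries (dots) with the mean (line) for 8 genes that fell and 8 that rose. In all 16 genes the dots of the groups do not overlap, with Flt3 between 80.8 and 100.4 CPM in -77KO and between 4.65 and 8.93 CPM in WT.

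The start regions of the changed genes were searched for the words that GATA factors and interferon-driven factors are known to bind. RefSeq windows on GRCm38.p6 from 250 bases before to 50 after a start were at hand for 10698 of the 15835 tested genes. AGATAA or TGATAA, on either strand, stood in 22.4% of windows of genes called at least 4-fold lower and in 13.4% of those at least 4-fold higher. It stood in 10.7% of windows of genes not called and in 11.4% of those of all tested genes. Over all 32851 windows, which include genes not tested, the share was 18.6%. A pair of GAAA words with 2 bases between them, on either strand, stood in 1.41% of windows of genes at least 4-fold lower. It stood in 19.9% of those at least 4-fold higher, in 2.68% of genes not called, in 3.25% of all tested genes and in 3.44% of all windows. The classes differ in base makeup, with a median of 43.3% A or T in the windows of the genes at least 4-fold lower and 48.7% in those at least 4-fold higher. The median was 40.0% in genes not called and in all tested genes, and 47.3% over all windows. Stretches of 80 bases from the windows of 6 genes that fell show this word in capitals, as AGATAA or TGATAA or, where it lies on the other strand, as TTATCT or TTATCA, each read 5′ to 3′ on the strand of the gene. They were picked, after the values were seen, for a regulator (Klf1), an enzyme of heme synthesis (Alas2), a repressor (Gfi1b) and receptors (Epor for erythropoietin, Ms4a2 for IgE, Il1rl1 for interleukin 33).
Klf1: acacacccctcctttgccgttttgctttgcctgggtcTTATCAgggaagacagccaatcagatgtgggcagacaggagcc
Alas2: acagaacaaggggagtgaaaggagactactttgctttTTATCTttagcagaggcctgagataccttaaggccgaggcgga
Gfi1b: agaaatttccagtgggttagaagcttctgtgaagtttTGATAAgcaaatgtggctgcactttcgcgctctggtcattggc
Epor: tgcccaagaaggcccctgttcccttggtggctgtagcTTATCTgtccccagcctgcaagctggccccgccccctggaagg
Ms4a2: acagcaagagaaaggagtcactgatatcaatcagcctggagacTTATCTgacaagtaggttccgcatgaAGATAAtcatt
Il1rl1: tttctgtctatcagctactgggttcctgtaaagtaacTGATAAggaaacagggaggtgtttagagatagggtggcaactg
They lie at chr8:84901865-84901944 (plus strand), chrX:150547294-150547373 (plus), chr2:28622060-28622139 (minus), chr9:21963588-21963667 (minus), chr19:11623720-11623799 (minus) and chr1:40429453-40429532 (plus). Klf1 fell to 2.21 ± 0.612 CPM in -77KO libraries, against 71.1 ± 15.5 CPM in WT libraries, Alas2 to 4.87 ± 3.26 CPM in -77KO libraries against 79.8 ± 29.2 CPM in WT libraries, and Ms4a2 to 1.86 ± 0.167 CPM in -77KO libraries against 35.7 ± 9.59 CPM in WT libraries. The 6 genes that rose show this pair of words and the bases between them in capitals, as TTTC words where it lies on the other strand and with overlapping pairs running together: the interferon-induced Ifit3, Ifit1bl1 and Isg15 (a ubiquitin-like modifier), the GTPases Gbp2 and Tgtp2, and Bst2, which tethers budding virus.
Ifit3: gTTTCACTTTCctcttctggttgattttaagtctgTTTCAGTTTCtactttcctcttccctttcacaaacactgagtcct
Ifit1bl1: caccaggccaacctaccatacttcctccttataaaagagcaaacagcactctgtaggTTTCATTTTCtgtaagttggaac
Isg15: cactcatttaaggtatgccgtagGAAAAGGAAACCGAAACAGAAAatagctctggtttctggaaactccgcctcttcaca
Gbp2: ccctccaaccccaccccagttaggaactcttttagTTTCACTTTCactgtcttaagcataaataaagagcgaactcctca
Bst2: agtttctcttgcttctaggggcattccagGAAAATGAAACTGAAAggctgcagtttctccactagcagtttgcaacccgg
Tgtp2: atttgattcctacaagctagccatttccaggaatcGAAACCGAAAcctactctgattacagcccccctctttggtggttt
They lie at chr19:34583372-34583451 (plus strand), chr19:34599428-34599507 (minus), chr4:156200840-156200919 (minus), chr3:142620569-142620648 (plus), chr8:71537552-71537631 (minus) and chr11:49064238-49064317 (minus). Gbp2 had 73.6, 52.1, 45.5 and 49.9 CPM in -77KO libraries, against 2.44, 9.18, 6.67 and 6.25 CPM in WT libraries, and Bst2 had 46.4, 36.5, 32.6 and 41.9 CPM in -77KO libraries against 10.4, 11.6, 7.79 and 6.61 CPM in WT libraries. A match is a match of letters only and says nothing on binding in these cells.

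Among transcription factors the losses and gains fell on different families. Of 39 homeobox cluster genes only 6 passed the filter on low counts, and these 6 were called higher. With the 8 libraries alone 4 passed, all 4 higher. A low gene can pass this filter through a group where it is high, so these counts are not a result about the family. Of ETS factors 8 of 20 rose, with 2 lower, and of nuclear receptors 10 of 26 rose, with 3 lower. Of the Krüppel-like and Sp factors 9 of 18 fell and 3 rose, and of the Ikaros, RUNX, GFI1 and Hox cofactor genes 14 of 27 fell and 7 rose. Of 353 C2H2 zinc finger genes 68 (19.3%) were called higher and 56 (15.9%) lower, no more than the 20.1% and 23.2% over all genes. Their balance turned without WT replicate 1, and 35 were lower without WT replicate 4. The Sox factors, of which 6 were tested, had 1 higher and 3 lower.

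Sox6, which silences embryonic globin in red cell precursors, had 1.96, 2.39, 1.97 and 1.599 CPM in -77KO libraries, against 48.7, 74.5, 77.2 and 93.9 CPM in WT libraries. It was 37.2-fold lower, with a log2 difference of -5.22 ± 0.23 (SE) and an adjusted p of 1.90e-11. Klf1, the Krüppel-like factor of red cells, had 2.82, 2.01, 1.44 and 2.56 CPM in -77KO libraries, against 74.8, 48.2, 81.4 and 79.9 CPM in WT libraries, 31.96-fold lower. The partners of GATA factors were lowered to different degrees. Zfpm1 (FOG-1) had 4.10, 3.10, 3.45 and 6.89 CPM in -77KO libraries and 50.2, 17.8, 34.2 and 68.2 CPM in WT libraries, 9.67-fold lower, Tal1 was 4.67-fold lower and Lmo2 1.43-fold lower. Gata1, outside the naming rule, had 5.38, 5.19, 4.19 and 7.32 CPM in -77KO libraries and 88.5, 79.8, 102 and 92.7 CPM in WT libraries. The repressors Gfi1b and Gfi1 fell, with log2 differences of -3.19 and -1.29, and so did Ikzf3 (Aiolos), with -2.91, and the forkhead factor Foxh1, with -5.06 (-6.59 without -77KO replicate 4). Zbtb46, a zinc finger gene known from dendritic cells, had 2.93, 1.97, 2.67 and 2.49 CPM in -77KO libraries, against 17.6, 13.8, 20.1 and 24.4 CPM in WT libraries. It was the 1 dendritic cell marker of 8 that fell, while the other 7 rose. Runx1 and Myc, with log2 differences of -0.15 and 0.02, were not called.

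Irf8, the interferon regulatory factor of monocytes and dendritic cells and outside the rule, had 111, 107, 95.5 and 111 CPM in -77KO libraries, against 13.2, 16.5, 12.5 and 12.6 CPM in WT libraries, 7.75-fold higher with a log2 difference of 2.95 ± 0.49 (SE). Spi1 (PU.1), the ETS master regulator of myeloid cells, had 89.6, 84.3, 86.8 and 116 CPM in -77KO libraries and 40.3, 37.8, 28.8 and 38.5 CPM in WT libraries, 2.59-fold higher. Its relative Spib was 10.5-fold higher and Mycl, a MYC family gene of dendritic cells, 16.3-fold, both under 1 CPM in WT libraries. Batf3, needed for cross-presenting dendritic cells, rose by 3.15 in log2. Of the homeobox genes and their partners Hoxa9 averaged 8.19 ± 0.541 CPM in -77KO libraries and 1.88 ± 0.594 CPM in WT libraries (SD, n = 4 each), Hoxa7 3.04 ± 0.193 CPM in -77KO and 0.521 ± 0.152 CPM in WT libraries, Meis1 33.9 ± 2.58 CPM in -77KO and 16.3 ± 0.494 CPM in WT libraries and the zinc finger gene Mecom 3.22 ± 0.458 CPM in -77KO and 0.732 ± 0.283 CPM in WT libraries. Myb, which progenitors need to divide, was lower at 171 ± 11.1 CPM in -77KO libraries and 252 ± 19.7 CPM in WT libraries. Id3 and Id2, inhibitors of E proteins, rose by 1.90 and 0.93, and Klf4, Pparg and Rara by 2.04, 1.84 and 1.76.

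In the NF-kappa-B pathway, which turns on inflammatory genes, 15 of 24 members rose and 0 fell, with a median log2 difference of 0.55 against -0.05 over all genes. Nfkb1 had 149, 152, 141 and 150.3 CPM in -77KO libraries, against 79.5, 88.3, 74.7 and 70.4 CPM in WT libraries, and Map3k14, the kinase of the noncanonical branch, 11.8, 10.1, 12.4 and 15.5 CPM in -77KO libraries against 2.87, 2.75, 2.35 and 3.42 CPM in WT libraries. Neither gene's groups overlapped.

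**Figure D4:**
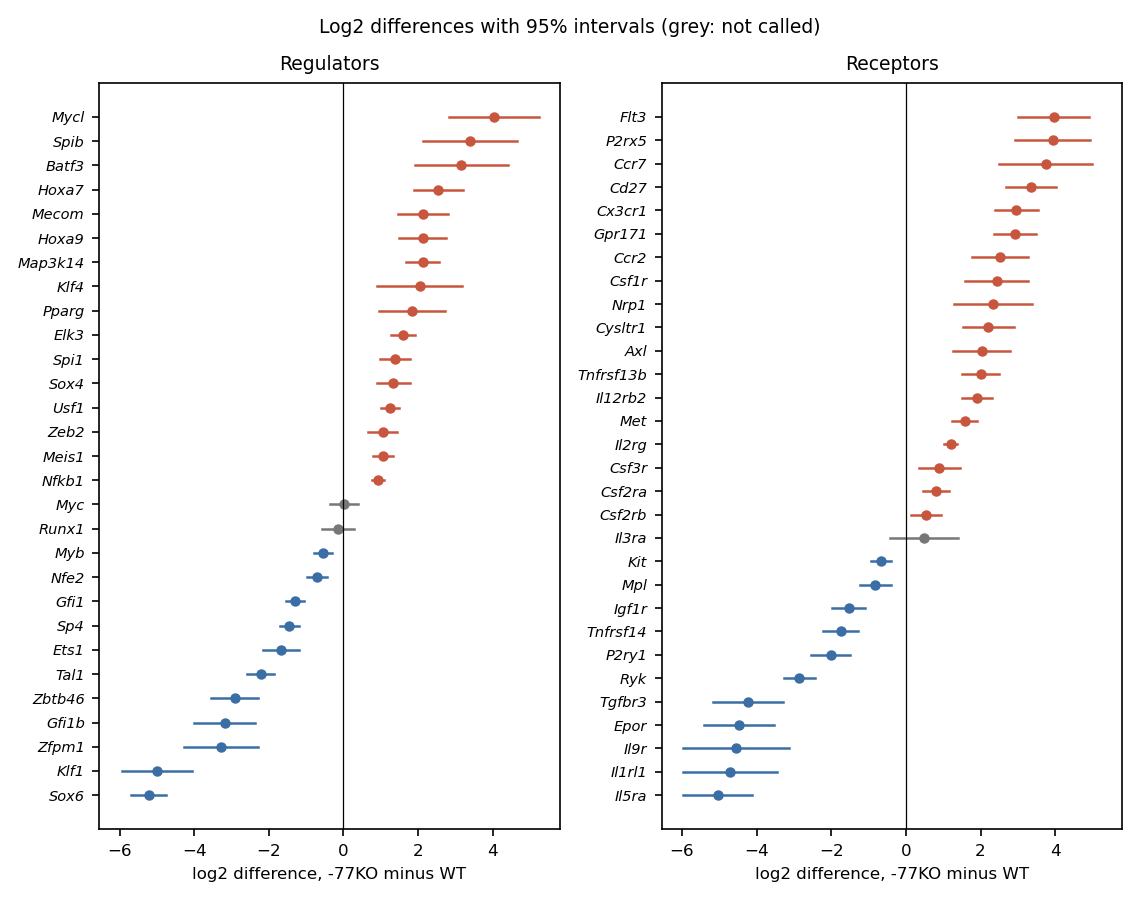
Log2 differences (-77KO minus WT, horizontal axis) with 95% intervals for 29 regulators (left) and 30 receptor genes (right), ordered by value; red marks called higher, blue called lower and grey not called. Mycl and Flt3 stand highest and Sox6 and Il5ra lowest, and Myc, Runx1 and Il3ra cross 0.

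Receptors moved in both directions. Of the interleukin and cytokine receptor chains 25 of 50 rose and 8 fell. Il1rl1, the receptor of interleukin 33 on mast cells, had 3.38, 3.44, 5.50 and 5.75 CPM in -77KO libraries, against 102, 123.3, 139.7 and 109 CPM in WT libraries. Il5ra (eosinophils), Il9r (mast cells) and Epor (red cells) had log2 differences of -5.04, -4.56 and -4.46, all called lower. Kit, the receptor of stem cell factor, had 78.2, 79.5, 73.4 and 74.8 CPM in -77KO libraries and 113, 104.7, 122.7 and 146 CPM in WT libraries, 1.59-fold lower, and Il3ra was not called, with a log2 difference of 0.47 and a 95% interval of -0.44 to 1.38. Csf2rb, the chain shared by the receptors of interleukin 3, interleukin 5 and GM-CSF, was 1.45-fold higher, and its call was lost without -77KO replicate 4 (adjusted p = 0.0921) or WT replicate 1 (adjusted p = 0.0689). Csf3r and Csf2ra, for G-CSF and GM-CSF, were 1.86-fold and 1.76-fold higher. Il12rb2 and the common gamma chain Il2rg rose by 1.91 and 1.2.

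Of 30 receptor tyrosine kinases 8 rose and 8 fell. Flt3, the receptor of multipotent and dendritic progenitors, had 100.4, 80.8, 87.2 and 98.8 CPM in -77KO libraries, against 4.65, 8.93, 4.79 and 5.29 CPM in WT libraries, 15.6-fold higher with an adjusted p of 1.21e-06. Csf1r, the receptor of M-CSF on monocytes, had 435, 439, 411 and 487 CPM in -77KO libraries and 80.6, 98.5, 62.0 and 87.2 CPM in WT libraries. Axl, which senses dying cells, and Met, the receptor of hepatocyte growth factor, were 4.08-fold and 2.97-fold higher. Ryk, an atypical Wnt receptor, had 3.91, 4.19, 3.36 and 4.26 CPM in -77KO libraries and 31.7, 27.1, 29.1 and 26.3 CPM in WT libraries, 7.25-fold lower, and Igf1r was 2.90-fold lower. In the TGF-beta pathway 14 of 30 rose and 4 fell, and the coreceptor Tgfbr3 was its lowest member: 1.96, 1.76, 2.45 and 1.39 CPM in -77KO libraries, against 30.5, 25.2, 45.2 and 40.7 CPM in WT libraries, a log2 difference of -4.23 ± 0.44 (SE).

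The G protein-coupled receptors held some of the clearest separations. Ccr2, which draws monocytes from the marrow, had 782, 922, 844 and 740.0 CPM in -77KO libraries, against 100.4, 217, 153 and 106 CPM in WT libraries. Cx3cr1, the fractalkine receptor, and Ccr7, which guides dendritic cells to lymph nodes, were 7.78-fold and 13.4-fold higher. Of orphan and adhesion receptors 21 of 48 rose and 7 fell, and Gpr171 had 60.9, 47.5, 64.5 and 61.3 CPM in -77KO libraries and 6.65, 10.8, 7.28 and 6.43 CPM in WT libraries. Receptors of purines, lipids and amines split 14 higher to 11 lower of 37. Lpar6 for lysophosphatidic acid and Cysltr1 for cysteinyl leukotrienes rose by 1.80 and 2.20, while the histamine receptor Hrh4 and the platelet ADP receptor P2ry1 fell, with log2 differences of -4.71 and -2.02. Of the chemokines and their receptors 15 of 41 rose and 12 fell. Ccr3, the eotaxin receptor of eosinophils, had 0.301, 0.251, 0.0874 and 0.497 CPM in -77KO libraries, against 1.83, 4.17, 3.00 and 2.35 CPM in WT libraries. Ccl17, a chemokine that draws T cells, had 0.0376, 0, 0 and 0.0355 CPM in -77KO libraries and 0.217, 0.491, 0.329 and 0.147 CPM in WT libraries. P2rx5, an ATP-gated channel, was 15.3-fold higher.

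Lectin and immunoglobulin-like receptors were called higher more often than lower: 19 of 32 C-type lectins with 4 lower, 16 of 34 Siglec, paired and CD300 receptors with 5 lower, and 7 of 10 SLAM family genes with 1 lower. The TNF ligands and receptors were called higher in 16 of 33 and lower in 5. Cd27, a costimulator of lymphocytes, had 6.54, 4.52, 5.59 and 5.83 CPM in -77KO libraries and 0.652, 0.589, 0.563 and 0.404 CPM in WT libraries. Tnfrsf13b (TACI) rose by 2.00 and Tnfrsf14 fell, with -1.75. Nrp1, a coreceptor for semaphorins and VEGF, had 83.0, 88.7, 89.4 and 80.6 CPM in -77KO libraries and 19.5, 19.8, 14.1 and 14.4 CPM in WT libraries, 5.04-fold higher. Integrins split 8 higher to 7 lower of 27, with Itgax (CD11c) 9.09-fold higher. Of the tetraspanins 10 of 24 fell and 6 rose. In the Notch pathway 11 of 24 rose and 4 fell (2 without -77KO replicate 1 or 3 or WT replicate 1), with the target Nrarp 4.94-fold lower and the glycosyltransferase Mfng 2.502-fold higher. In the Wnt pathway 6 of 25 (24%) rose and 4 (16%) fell, beside 20.1% and 23.2% over all genes. Without -77KO replicate 2 or WT replicate 1 or 4, 2 fell. The factor Tcf7 was 3.41-fold higher and the secreted inhibitor Sfrp4 30.9-fold lower.

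Inside the cell the adaptors and kinases of immune receptors were called higher more often than lower, 18 of 31 adaptors with 4 lower and 11 of 25 Src, Syk, Tec and Jak kinases with 5 lower. Plcg2, the phospholipase below Fc and B cell receptors, averaged 333 ± 18.8 CPM in -77KO libraries and 122.8 ± 16.6 CPM in WT libraries, and the kinase Syk 206 ± 9.08 CPM in -77KO libraries and 113 ± 15.1 CPM in WT libraries (SD, n = 4 each). Lat, the scaffold of T cell and mast cell signalling, fell, with -1.70. Protein tyrosine phosphatases split 9 to 9 of 32: Ptpn6 (SHP-1) was 2.58-fold higher, and Ptpn13, at 1.28, 1.05, 0.961 and 1.17 CPM in -77KO libraries and 21.2, 19.7, 29.2 and 41.1 CPM in WT libraries, 24.8-fold lower. Among feedback inhibitors of cytokine signals Socs3 rose by 1.65 and Cish, a target of STAT5, fell, with -1.93.

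Host defence genes formed one-sided groups. All 16 IRG and GBP GTPases tested, which attack membranes around pathogens, were called higher, with a median log2 difference of 2.73. Of MHC class I and peptide loading genes 21 of 24 rose and 0 fell. Psmb8, an immunoproteasome subunit, had 101, 92.9, 87.2 and 98.7 CPM in -77KO libraries, against 20.1, 22.9, 18.6 and 15.5 CPM in WT libraries, and the peptide transporter Tap1 64.8, 49.7, 47.5 and 57.0 CPM in -77KO libraries against 14.7, 17.96, 16.1 and 17.2 CPM in WT libraries. Of inflammasome and pyroptosis genes 23 of 27 rose, with the adaptor Pycard 2.53-fold higher, and 2 fell, with the regulator Nlrp12 4.81-fold lower. Schlafen genes rose in 6 of 8: Slfn5 had 179.7, 189, 141 and 142 CPM in -77KO libraries and 11.7, 33.8, 10.8 and 13.7 CPM in WT libraries, with WT replicate 2 the highest of its group. Slfn14, known from platelets and reticulocytes, fell, with -3.57 (-4.41 without -77KO replicate 4). TRIM genes showed the same kind of split, 24 higher and 9 lower of 45, with Trim14 rising by 1.99 and Trim10, a gene of red cell maturation, at -4.62 among those that fell. Of 10 membrane-spanning 4A genes 7 rose and 1, the IgE receptor chain Ms4a2, fell. The NADPH oxidase makes the reactive oxygen of phagocytes. Of a list of its genes and of granule oxidases 5 of 11 rose, with the NADPH oxidase subunit Ncf4 at 1.599-fold. The 1 that fell was Epx, the eosinophil peroxidase. Of proteasome subunits 15 of 47 rose and 7 fell, with the activator Psme1 1.95-fold higher.

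Genes of the endolysosomal system were called higher more often than lower. Of phagocytic, scavenger and complement receptors 14 of 22 rose and 0 fell, of cathepsins 9 of 14 rose and 2 fell, and of subunits of the vacuolar proton pump 11 of 18 rose and 1 fell. The pump's changes were small, with a median of 0.34. Ctse, an aspartic protease of red cell precursors and other cells, went the other way and fell, with -3.41. Of autophagy genes 14 of 37 fell and 6 rose (3 without -77KO replicate 3 or WT replicate 4), with the autophagy receptor Optn at 10.4, 11.3, 9.83 and 10.2 CPM in -77KO libraries and 45.7, 53.1, 64.7 and 54.2 CPM in WT libraries. Of a list of synaptotagmins, syntaxins, VAMPs, Rab27 genes and their partners, which carry out regulated secretion, 15 of 26 fell and 3 rose. Vamp5 and the SNARE gene Stx11 had log2 differences of -2.10 and -1.35, and the small GTPase Rab27b, which docks secretory granules, -2.02. Over all Rab GTPases the count was even, 13 higher and 13 lower of 50 (26% each), near the 20.1% and 23.2% over all genes.

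Secreted mediators moved in both directions. Il6 had 0.639, 0.838, 0.743 and 0.746 CPM in -77KO libraries, against 11.9, 20.5, 16.3 and 8.56 CPM in WT libraries, 19.2-fold lower. Of interleukins and colony-stimulating factors 10 of 28 fell and 7 rose. Alox15, a lipoxygenase of eosinophils, had a log2 difference of -4.71, and Ggt5, which trims leukotrienes, one of 3.23. The decay-accelerating factor Cd55, which shields cells from complement, had 2.63, 3.44, 3.23 and 5.01 CPM in -77KO libraries and 28.8, 35.2, 42.3 and 37.6 CPM in WT libraries, and a second shield, Cd59a, was 4.604-fold lower. The complement genes C1qb and Cfp (properdin) were 3.10-fold and 2.66-fold higher. Of coagulation factors and their inhibitors 9 of 29 fell and 3 rose, with F5 (factor V) 3.90-fold lower. The median log2 difference of this list was -0.82, beside -0.85 for the 13 hepatocyte markers, and the part of liver cells in it was not tested. Of serpins 4 of 28 (14.3%) fell and 3 (10.7%) rose, below the 23.2% and 20.1% over all genes. Serpinb2 was 8.75-fold lower and Serpina3g 3.48-fold higher.

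Genes of cell shape moved in both directions. Of the spectrin and ankyrin skeleton, best known from red cells, 13 of 20 fell and 4 rose. Dmtn (dematin) had 0.639, 1.05, 0.743 and 1.10 CPM in -77KO libraries, against 25.0, 31.0, 30.0 and 39.7 CPM in WT libraries, and beta spectrin Sptb 5.15, 6.07, 5.55 and 11.3 CPM in -77KO libraries against 213, 151, 205 and 329 CPM in WT libraries. Sptan1, the spectrin of other cells, was 1.59-fold higher. Of actin regulators 27 of 51 rose and 8 fell: Coro2a and Evl were 3.34-fold and 4.58-fold higher, and Vcl (vinculin) 2.18-fold lower. Mylk3, a myosin light chain kinase, had 2.71, 2.39, 1.97 and 2.27 CPM in -77KO libraries and 60.6, 68.2, 100.4 and 77.2 CPM in WT libraries, 32.7-fold lower, and the nonmuscle myosin Myh10 and septin Sept8 were 7.94-fold and 7.57-fold lower. The membrane myosins Myo1f and Myo1g rose by 1.23 and 1.2. Of 15 tubulins 5 fell and 0 rose, with Tubb1, the beta tubulin of platelets, 4.31-fold lower. Of matrix genes 16 of 81 (19.8%) rose and 14 (17.3%) fell, no more than the 20.1% and 23.2% over all genes. Their balance turned in 3 other settings. The collagen gene Col5a1 was 7.97-fold lower.

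**Figure D5:**
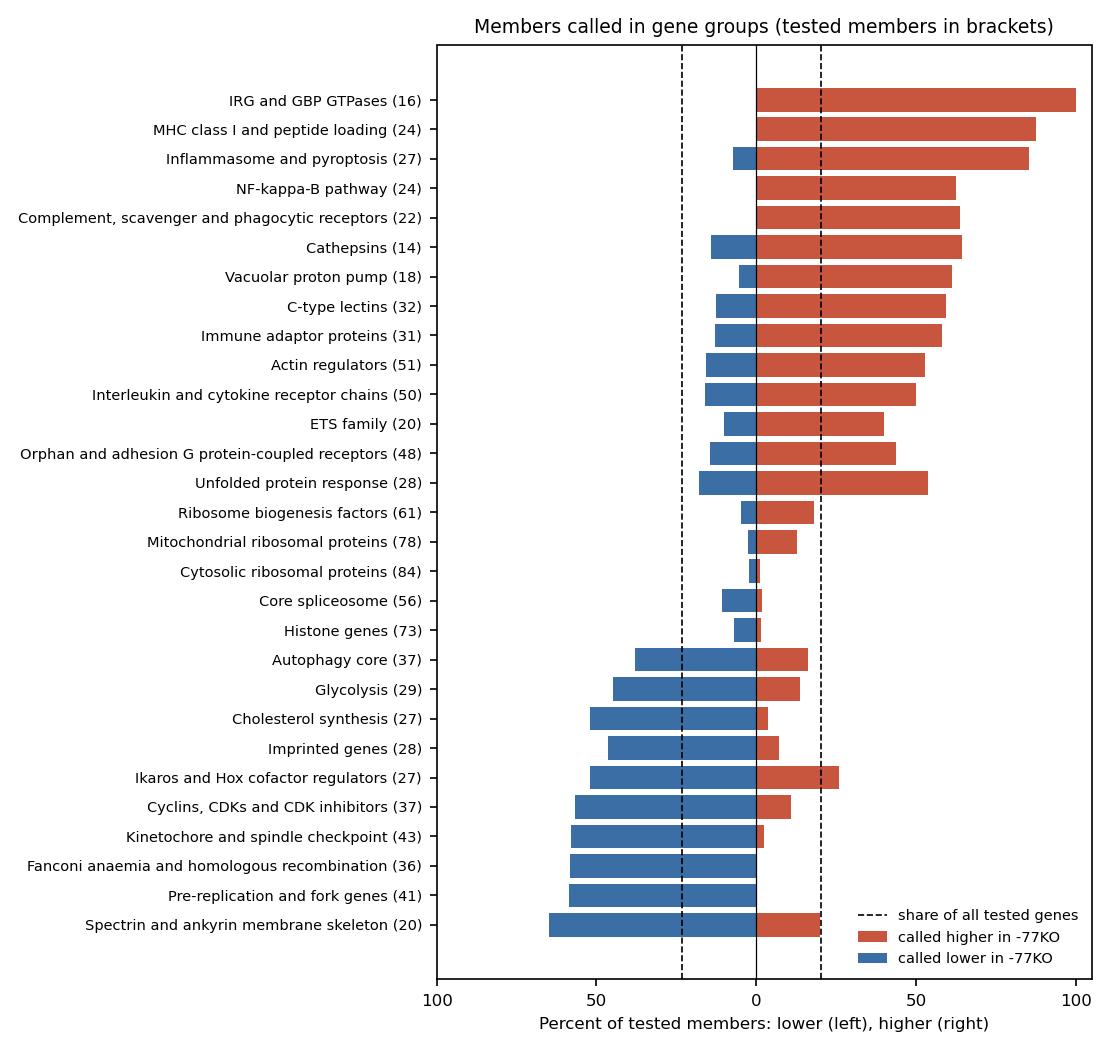
Percent of the tested members of 29 gene groups called higher in -77KO (red, right) and called lower (blue, left), with the numbers tested in brackets; dashed lines mark the shares over all tested genes, 20.1% higher and 23.2% lower. The 16 IRG and GBP GTPases are all higher, no replication gene is higher, and ribosomal proteins lie well inside both lines.

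Among metabolic genes, isoforms of 1 enzyme could move in opposite directions. Of glycolysis genes 13 of 29 fell and 4 rose. The red cell isoform of pyruvate kinase, Pklr, had 5.38, 4.398, 3.71 and 4.80 CPM in -77KO libraries, against 116, 85.2, 130.2 and 124 CPM in WT libraries, while the isoform of other tissues, Pkm, had 982, 920.3, 959.5 and 1076 CPM in -77KO libraries against 559, 604, 675 and 704 CPM in WT libraries. Hexokinase Hk1 was 3.71-fold lower and Hk2, named after its values were seen, 1.38-fold higher. Among antioxidant genes Prdx2, abundant in red cells, had a log2 difference of -1.64 and Prdx1 one of 0.92. The mitochondrial isocitrate dehydrogenase Idh2 was 2.03-fold higher. The citric acid cycle list as a whole had 7 higher (24.1%) and 8 lower (27.6%) of 29, near the 20.1% and 23.2% over all genes. Its balance turned in 6 other settings, with 5 lower without -77KO replicate 1 or 4 or WT replicate 1. Of glutathione S-transferases 8 of 18 fell and 2 rose, with Gstm5 20.0-fold lower. Cholesterol synthesis genes fell in 14 of 27 and rose in 1, by small amounts: the median was -0.31 and Lss, which closes the sterol ring, was 1.98-fold lower. Sphk1, which makes sphingosine 1-phosphate, had 1.13, 1.00, 0.699 and 1.24 CPM in -77KO libraries and 30.4, 21.9, 36.6 and 42.2 CPM in WT libraries, 31.8-fold lower. Gatm, the first enzyme of creatine synthesis, and Pcx, pyruvate carboxylase, were 5.69-fold and 8.85-fold lower. Of nucleotide synthesis genes 11 of 35 rose and 6 fell, among them Rrm2 and Tk1, which serve DNA synthesis, at 1.62-fold and 1.79-fold.

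Transporters moved in both directions, 63 solute carriers higher and 70 lower of 238, a balance that turned to more higher than lower in 2 of 15 other settings. The zinc and manganese importer Slc39a8 was 7.53-fold lower and the mitochondrial carrier Slc25a45 2.93-fold higher. Of ABC transporters 10 of 38 (26.3%) fell and 8 (21.1%) rose, near the 23.2% and 20.1% over all genes. Their balance turned in 1 other setting, the fit of the 8 libraries with the replicate number as a block. Abcb10, a mitochondrial transporter of red cell precursors, had 25.2, 27.6, 23.7 and 24.4 CPM in -77KO libraries, against 150.4, 173, 211 and 198 CPM in WT libraries, and Abcg4, a cholesterol exporter, was 51.8-fold lower. Abcb4, a phospholipid exporter best known from liver and outside the rule, had 11.1, 11.3, 8.39 and 10.6 CPM in -77KO libraries and 165, 166, 235.4 and 205 CPM in WT libraries, beside the median of -0.85 in log2 for the 13 hepatocyte markers, none of them called. Of ion channels 23 of 66 fell and 16 rose, with the chloride transporter Clcn3 3.12-fold lower and the cation channel Trpv2 2.20-fold higher.

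Many genes of cell division were lower by small amounts. Of pre-replication and fork genes 24 of 41 were called lower and 0 higher, with a median log2 difference of -0.31. Of Fanconi anaemia and homologous recombination genes 21 of 36 were lower and 0 higher, and of kinetochore and spindle checkpoint genes 25 of 43 were lower and 1 higher. Orc5, a subunit of the origin recognition complex, stood out at 19.7, 22.3, 19.2 and 20.1 CPM in -77KO libraries and 55.8, 52.7, 68.5 and 56.7 CPM in WT libraries, 2.88-fold lower. Cdc6, which loads the helicase at origins, was 1.97-fold lower. Of a list of cyclins, their kinases and the inhibitors of these kinases 21 of 37 fell and 4 rose. This list mixes drivers and brakes of division. Ccne1, cyclin E1, had 24.8, 28.8, 24.8 and 27.3 CPM in -77KO libraries and 63.4, 70.4, 82.9 and 58.3 CPM in WT libraries, and Rb1 52.4, 65.7, 65.5 and 65.0 CPM in -77KO libraries against 119, 156, 183 and 181 CPM in WT libraries, whereas the D-type cyclins Ccnd1 and Ccnd2 were 2.88-fold and 1.92-fold higher. WT replicate 1 was the highest WT library for Ccnd1 and WT replicate 4 for Ccnd2.

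Chromatin genes moved in both directions. SWI/SNF subunits were called higher in 5 and lower in 9 of 24 (3 higher without -77KO replicate 1 or 4 or WT replicate 3), and with limma 6 higher and 5 lower. Genes of DNA methylation and demethylation were called higher in 7 (4 without -77KO replicate 4 or WT replicate 3) and lower in 4 (2 without WT replicate 4) of 20. H2afy, which encodes the histone variant macroH2A1, had 729.7, 719.8, 731 and 715 CPM in -77KO libraries, against 178, 210.1, 172 and 138 CPM in WT libraries. It was 4.15-fold higher with an adjusted p of 7.64e-08, the only histone gene of 73 called higher. Of the others 5 were called lower (3 without WT replicate 4) and 67 were not called. In the fit of the 8 libraries with the replicate number as a block, 13 of 70 were lower. The de novo DNA methyltransferase Dnmt3b had 59.5, 50.01, 57.7 and 53.2 CPM in -77KO libraries and 18.3, 18.2, 17.4 and 13.5 CPM in WT libraries. Of the SWI/SNF remodeller, Phf10 and Dpf3, alternative subunits of the complex, were 2.10-fold and 12.5-fold lower. The deacetylase Hdac9 rose by 2.07 and Hdac11 fell, with -2.67. Of imprinted genes 13 of 28 fell and 2 rose, with the growth inhibitor Grb10 at 36.5, 26.0, 28.3 and 27.5 CPM in -77KO libraries and 171, 125, 142 and 143 CPM in WT libraries.

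Cell survival and stress genes were mixed. Of the BCL2 family and caspases 16 of 34 rose and 4 fell. Bcl2, which blocks cell death, had 44.3, 46.7, 46.4 and 38.7 CPM in -77KO libraries and 15.04, 18.3, 15.7 and 15.03 CPM in WT libraries, 2.75-fold higher. Within the unfolded protein response list 15 of 28 rose and 5 fell. Edem1, which clears misfolded proteins, was 1.53-fold higher, while Asns and Ppp1r15a, targets of the ATF4 branch, were 2.11-fold and 3.07-fold lower.

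Most genes of protein synthesis, mitochondrial import and the core spliceosome lay close to their WT level, relative to the TMM-scaled library. Of 84 cytosolic ribosomal protein genes 1 was called higher and 2 lower, and 88.1% had a 95% interval wholly within 0.5 of 0 on the log2 scale, against 27.2% of all genes. The balance of these few calls turned under 9 other settings. Such a narrow interval was found for 86.2% of 29 mitochondrial import genes, 79.5% of 78 mitochondrial ribosomal protein genes, 78.4% of 37 aminoacyl-tRNA synthetases and 76.8% of 56 core spliceosome genes. Called members were 2 higher and 0 lower for import, 10 and 2 for the mitochondrial ribosome, 3 and 7 for the synthetases and 1 and 6 for the spliceosome. Without WT replicate 3, 19 genes of the mitochondrial ribosome were higher and 3 synthetases lower, and without -77KO replicate 3, 4 synthetases were lower. The balance turned in 3 other settings for the synthetases and in 1 for the spliceosome. Ribosome biogenesis factors had such a narrow interval in 73.8% of 61, with 11 called higher and 3 lower. Translation initiation factors had it in 72.2% of 54, with 6 called higher and 9 lower and log2 differences from -1.10 to 1.59. The balance of the initiation factors turned in 6 other settings.

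Among long noncoding RNA genes, Redrum, known from red cell precursors, had 0.489, 0.168, 0.218 and 0.568 CPM in -77KO libraries, against 13.3, 13.4, 19.9 and 13.5 CPM in WT libraries, 40.3-fold lower. 5430401H09Rik and Gm11837 were 37.8-fold and 36.2-fold lower. Gm2061 had 3 counts over the 4 -77KO libraries and averaged 2.25 ± 1.27 CPM in WT libraries. The highest were Gm15987 at 8.06-fold, Gm5086 at 6.25-fold, AW112010 at 5.24-fold and Gm20559 at 5.04-fold. AW112010 had 4.02, 2.22, 1.92 and 2.45 CPM in -77KO libraries and 0.348, 1.03, 0.422 and 0.257 CPM in WT libraries, and its log2 difference of 2.39 became 2.99 without WT replicate 2. The counting is not stated to use strand, so a noncoding gene that overlaps another gene cannot be told apart from it.

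Some stretches of neighbouring genes were called in 1 direction. Runs of at least 6 neighbouring tested genes called in 1 direction numbered 16 higher and 18 lower. Runs are named for the family they hold, and other genes may stand among those counted. Of the higher runs that hold a gene family, 1 held the Ugt1a genes on chromosome 1, which overlap each other. It had 12 genes, 6 of them protein-coding, with log2 differences of 0.49 to 2.44. Others were the Ifi200 genes on chromosome 1 (11 genes from Ifi213 to Olfr433, 2.42 to 4.85), the Trim5 and Trim30 genes on chromosome 7 (11 genes, 0.60 to 3.53) and the Irgm1 and Tgtp2 genes on chromosome 11 (10 genes, 0.98 to 3.78). Shorter ones held the Ms4a4 and Ms4a6 genes on chromosome 19 (6 genes, 1.75 to 4.16), the guanylate-binding proteins on chromosomes 3 and 5 (6 genes each) and H2-DMa to Psmb8 on chromosome 17 (6 genes, 1.73 to 3.25). Lower runs of families included the stefins on chromosome 16 (9 genes, -3.24 to -1.65). On chromosome 14 lay a run with eosinophil ribonucleases (7 genes, 3 of them protein-coding, -7.15 to -0.91). The mast cell proteases lay on the same chromosome (6 genes, Cma1 to Mcpt8, -8.00 to -2.89). The tryptases lay on chromosome 17 (6 genes, Prss34 to Cacna1h, -11.68 to -2.37). Others mixed unrelated genes, such as a stretch of chromosome 1 with 10 lower genes (-2.34 to -0.33). Members of such families resemble each other and may share reads. By chromosome, 36.1% (X) to 50.7% (6) of the tested genes were called, leaving aside the few genes tested on Y (1 of 7) and on the mitochondrial chromosome (4 of 15). No test was made of whether runs exceed chance.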

How the data were processed

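RNA was extracted as total RNA and libraries were made with the NuGEN Ovation kit, per the labels' protocols. Per the submitters' processing notes, which name tools without their order, STAR 2.5.2b and RSEM 1.3.0 were used with mm10. The deposited tables hold, for each library and gene, the authors' expected count (RSEM's estimate, not a whole number), TPM and FPKM. The deposited FPKM values were not used. The authors' TPM served for levels compared between genes and for an alternative test.

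Expected counts were rounded to whole numbers and 15835 of 53379 genes passed edgeR's filterByExpr. edgeR 4.0.16 (R 4.3.3) fitted all 20 libraries as 5 group means with TMM scaling, and its quasi-likelihood F test gave the contrast of the 4 -77KO libraries with the 4 WT libraries that received the control vector. Calls were made at a Benjamini-Hochberg adjusted p under 0.05 over all 15835 genes. SE is the log2 difference divided by the square root of F, and intervals are 95%. CPM per library are counts relative to the TMM-scaled library, and ± is SD over 4 libraries. Gene names, types and places are from GENCODE M21 (GRCm38). Libraries held 22330475 to 28138755 expected counts. On simulated data for this comparison, over 15835 genes, 64 of 100 genes changed by 1 in log2 and 89 of 100 changed by 2 were called, with 3 unchanged genes called. No other genes were changed there, and the libraries were drawn as independent. In the real data 43.3% of genes were called, so these rates need not hold for them.

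Named genes are Gata2, the 12 highest and 12 lowest log2 differences with at least 5 CPM in 1 group and no overlap between groups, the 8 largest gains and losses in TPM (both leaving out predicted, ribosomal, mitochondrially encoded and pseudogene symbols), up to 2 called members per direction of each gene list by adjusted p, 4 long noncoding genes per direction with at least 2 CPM, and members of the regulator and receptor lists. Some items that this rule names are not reported here. Genes outside this rule, chosen after their values were seen, are Rpn1, Eefsec, Ruvbl1, Mgll, Aplf, Prokr1, Scd1, Acsl6, Slc30a10, Hapln1, Hk2, Alas2, Isg15, Bst2, Gata1, Irf8 and Abcb4. The comparison, the lists and the rule were chosen with earlier results of these data known. A list is described by its counts beside those over all genes. Alternatives were other scaling factors, no filter, the 8 libraries alone, the replicate number as a block, DESeq2 1.42.0, limma 3.58.1 on log2(TPM + 1), and each library left out. Promoter windows are RefSeq's on GRCm38.p6.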

Additional observations from a re-analysis of the deposited data

Results flagged for a closer look

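For 219 genes named in the report, 438 groups of 4 libraries were examined, 2 for each gene. Of these groups, 29 held a library whose gap to the nearest other took more of the group's range than Dixon's 95% limit for 4 values allows. Chance alone gives about 1 in 20. WT replicate 2 was the outlying library in 12 of them. It was above the other 3 WT libraries for Ifi44 (0.393 CPM, others 0.217 to 0.235), Ly6a (9.47, others 4.17 to 4.93), Ms4a4c (10.3, others 1.83 to 3.05), Klrd1 (0.933, others 0.652 to 0.661), Flt3 (8.93, others 4.65 to 5.29), Itgax (2.80, others 1.47 to 1.55), Slfn5 (33.8, others 10.8 to 13.7), Trim5 (5.99, others 4.74 to 4.88), Socs3 (9.03, others 6.13 to 6.62), Edem1 (214, others 160.0 to 165) and Myo1f (198, others 160.0 to 163), and below them for Vamp5 (23.7, others 32.7 to 34.0). All these are CPM, and for the genes that rose in -77KO libraries the WT replicate 2 value still lay below every -77KO library.

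-77KO replicate 4 was the highest -77KO library for Hbb-bs (367 CPM, others 59.6 to 111), Hbb-bt (144, others 29.5 to 42.0), Sptb (11.3, others 5.15 to 6.07), Slfn14 (1.46, others 0.335 to 0.376) and Spi1 (116, others 84.3 to 89.6). -77KO replicate 3 was the highest for the eosinophil genes Epx (0.306 CPM, others 0.0376 to 0.0711) and Ear6 (1.31, others 0.168 to 0.284) and for Coro2a (204, others 185 to 187). -77KO replicate 1 was the lowest for Slc39a8 (6.54 CPM, others 8.96 to 9.13) and Rb1 (52.4, others 65.0 to 65.7), and -77KO replicate 2 the highest for Gm15987 (8.54, others 7.21 to 7.41).

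Among WT libraries, replicate 3 was the highest for Redrum (19.9 CPM, others 13.3 to 13.5), P2ry1 (40.8, others 33.2 to 34.4) and Prdx2 (400.0, others 349 to 357) and the lowest for Myo1g (56.3, others 69.7 to 71.9). WT replicate 4 was the highest for Cish (9.85 CPM, others 3.78 to 4.26) and WT replicate 1 the lowest for Tubb1 (20.9, others 33.9 to 36.6).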

How the results depend on the processing

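The count of called genes, 6859 in the report, ran from 5798 (the 8 libraries alone) to 7034 (DESeq2) over 7 other settings and from 6256 to 6916 when single libraries were left out. The count of genes called and at least 2-fold was 2972, but 1501 with limma on log2(TPM + 1), where the pseudocount shrinks differences of low genes (89 named genes moved by over 1.5 times), and 2782 to 3122 without single libraries. Without single libraries the genes called higher numbered 2886 to 3434 and those called lower 3127 to 3663. Of 211 called genes named in the text, 209 kept their call and direction in every setting that gave an adjusted p, and Lyz2 and Csf2rb lost it as the report says. Of the 219 named genes checked, none changed direction where it was called. The balance of higher and lower members turned in at least 1 setting for 19 of 101 gene lists. With limma, 13 Fanconi and recombination genes, 13 kinetochore genes and 8 cholesterol genes were lower, against 21, 25 and 14 in the report, and without a filter 15 kinetochore genes and with the 8 libraries alone 9 cholesterol genes.

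With the replicate number as a block in a fit of the 8 libraries, 6284 genes were called, 3189 higher and 3095 lower, so the balance turned, and 2741 at least 2-fold. It called 13 histone genes lower, against 5 in the report. The numbers were not taken to pair the libraries across the groups, since 1 of 4 correlations fell short of 0.1: those of same-numbered -77KO and WT libraries, as deviations from their group means, were 0.150, 0.286, -0.068 and 0.245 for numbers 1 to 4, and 3 of 4 -77KO libraries correlated best with their own number, a hint of pairing from the data and not from the design.

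Ddx3y was at 0 TPM in replicate 4 of all 4 -77KO groups of the series and at 2.12 to 2.45 TPM in replicate 1 of each, so libraries of 1 number there may hold cells of the same embryos, while the fit of 20 libraries takes them as independent. The fit of the 8 libraries alone does not use the other 12. Each group has 4 libraries, and a gene that misses the threshold is not shown to be unchanged.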
